A study of Mus musculus with 8 samples.

Results

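The prostaglandin synthesis and receptor genes comprised 10 entries of the 54532 in the deposited count table, taken by gene symbol: the cyclooxygenases Ptgs1 and Ptgs2, the terminal synthases Ptges and Ptgis, the prostaglandin E2 receptors Ptger1, Ptger2, Ptger3 and Ptger4, the prostaglandin F receptor Ptgfr and the prostacyclin receptor Ptgir. RNAseq was performed on untreated primary lung fibroblasts (pFBs) of female mice on a C57/black background, grown out of minced lung and kept in culture. The 4 WT libraries came from wild type mice, and the 4 HOMO libraries from mice homozygous for a CRISPR/Cas9 knock-in of human IGFBP5 (hIGFBP5), a secreted binding protein for insulin-like growth factors. The transgene is driven by the promoter of an elongation factor and expressed ubiquitously, not in fibroblasts alone, and the mice's age and number are not given in the sources used here. The comparison of HOMO with WT addresses which genes differ in fibroblasts that express hIGFBP5.

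Prostanoids are lipid mediators made from arachidonic acid, which phospholipases free from membranes. A cyclooxygenase converts it to prostaglandin H2, and terminal synthases then make prostaglandin E2, prostacyclin or other prostanoids, which act on G protein-coupled receptors of neighbouring cells or of the cell that released them. In lung fibroblasts, prostaglandin E2 is known to restrain proliferation, migration and collagen synthesis, mainly through receptors that raise cyclic AMP (cAMP).

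Each WT library held 17236521 to 29028769 counted reads and each HOMO library 19009027 to 31987790. Levels are CPM, counts scaled to the library size after TMM normalization, and a floor of 3 counts corresponded to between 0.0907 and 0.172 CPM, which covers counting error only. HOMO and WT were compared with edgeR's two-sided quasi-likelihood F test over the 14150 genes that passed its filter on low counts, and a gene was called at a Benjamini-Hochberg adjusted p under 0.05 with an absolute log2 fold change above 0.6, the study's thresholds. All 9 fibroblast markers (collagens, Pdgfra, Pdgfrb, Thy1, Vim, Dcn and Lum) were detected, with a summed level of 12919.7 to 16589 CPM in WT and 13985 to 24352 CPM in HOMO. Most of this sum came from Col1a1 and Col1a2, while Pdgfrb and Vim were called lower in HOMO (log2 fold changes −0.97 and −0.65, edgeR adjusted p = 0.0251 and 0.0430) and Thy1 had −1.62 (0.116). The libraries did not stand equally far apart. WT1 with WT2, HOMO1 with HOMO2 and HOMO3 with HOMO4 differed by a biological coefficient of variation of 4.71% to 7.65%, against 30.05% to 56.4% for the other pairs of a genotype, although every pair differed by more than sampling noise. The labels do not say which libraries come from separate mice or cultures, so the p-values measure the spread between these libraries, which may be technical. The summed level of 8 macrophage markers, all of them detected, was 132 and 160 CPM in WT1 and WT2, 1986 in WT3, 1163 in WT4 and between 58.02 and 192 in HOMO. Mesothelial markers summed to 23.04 to 231 CPM in WT and 104 to 149.9 in HOMO, and those of endothelial and mast cells to at most 8.08 and 6.30 CPM in any library. Epithelial markers, 6 of 6 detected, summed to 0.169 to 0.974 CPM in WT and 1.38 to 14.5 in HOMO. Of these only the cadherin gene Cdh1 was tested, and it was called higher in HOMO, at 1.66 ± 0.465 against 0.225 ± 0.238 CPM (log2 fold change 2.77, edgeR adjusted p = 0.0462). Sftpc and Scgb1a1 counts lay mainly in HOMO2 and HOMO3, and those of Epcam and Krt8 mainly in HOMO4. The mesothelial transcription factor gene Wt1 was also called higher, at 33.3 ± 6.50 against 3.25 ± 3.63 CPM (3.36, edgeR adjusted p = 0.0166). The other mesothelial markers were not called, with log2 fold changes of −0.52 for Msln, −0.62 for Upk1b, 0.22 for Lrrn4 and 0.09 for Upk3b. Cdh1 and Wt1 moved with genotype, as did Ptger3, and their part in the results was not tested.

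Of the 10 members, 9 passed the filter and 2 were called, Ptgs1 lower and Ptger3 higher in HOMO, beside 12.1% of all tested genes called in either direction (5.94% higher and 6.18% lower). Ptger2 was too low to be tested. The CPM of the genotypes did not overlap for 4 members, Ptgs1, Ptgs2, Ptges and Ptger3, beside 27.3% of all tested genes. The median log2 fold change of the tested members was −0.26, against −0.04 for all tested genes, with 4 members above 0 and 5 below. With 9 genes, these counts do not set the members apart from the rest of the transcriptome, and the values of each gene carry the account below.

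**Figure D1:**
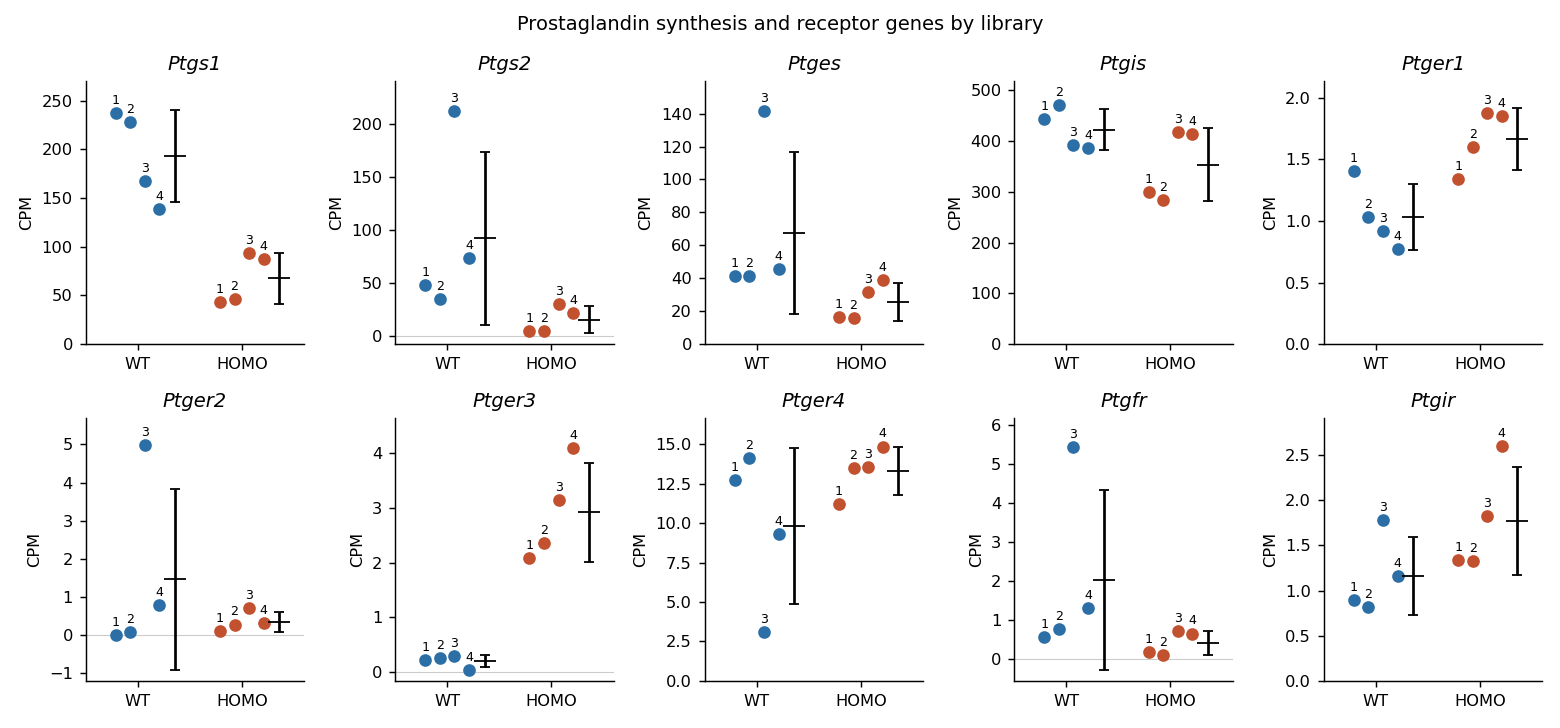
CPM (counts scaled to TMM library size, linear axes) of each member in the 4 WT and 4 HOMO libraries, numbered by replicate, with the mean and SD of each genotype in black. Ptgs1, Ptgs2 and Ptges lie lower in every HOMO library than in every WT library and Ptger3 lies higher, while WT3 alone sets the top of Ptgs2, Ptges, Ptger2 and Ptgfr and the foot of Ptger4.

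The promoters shown are those of the members whose CPM did not overlap between genotypes, 3 lower and 1 higher in HOMO. Of these, Ptgs1 and Ptger3 were called, while Ptgs2 and Ptges were not. Sequences are RefSeq's for GRCm38.p6, from 250 bases before the transcription start to 30 after it, 5′ to 3′ on the gene's strand, and 8 of the 10 members matched an entry. Capitals mark matches on either strand to the letters TGACG (a cAMP response element half-site), CACGTG (an E-box), TTGCGCAA (a palindrome of the C/EBP type) or GGGCGG (known as the GC box). The letters CCAAT, in 36.1% of promoters, and the letters TATAAA, in 13.1%, were searched in the same way and do not occur in these windows. The windows lie at chr2:36230176-36230455 on the plus strand for Ptgs1, chr1:150099781-150100060 on the plus strand for Ptgs2, chr2:30903268-30903547 on the minus strand for Ptges and chr3:157566626-157566905 on the plus strand for Ptger3.
Ptgs1: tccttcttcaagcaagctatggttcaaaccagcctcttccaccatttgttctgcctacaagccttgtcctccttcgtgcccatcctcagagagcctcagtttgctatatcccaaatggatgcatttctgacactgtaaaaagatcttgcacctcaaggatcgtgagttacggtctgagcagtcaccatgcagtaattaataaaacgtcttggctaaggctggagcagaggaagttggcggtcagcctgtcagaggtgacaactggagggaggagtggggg
Ptgs2: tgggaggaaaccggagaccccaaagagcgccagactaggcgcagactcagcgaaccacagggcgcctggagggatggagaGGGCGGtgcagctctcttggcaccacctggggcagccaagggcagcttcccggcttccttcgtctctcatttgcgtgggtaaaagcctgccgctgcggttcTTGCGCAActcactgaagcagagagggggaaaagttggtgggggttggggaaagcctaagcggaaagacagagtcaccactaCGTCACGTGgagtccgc
Ptges: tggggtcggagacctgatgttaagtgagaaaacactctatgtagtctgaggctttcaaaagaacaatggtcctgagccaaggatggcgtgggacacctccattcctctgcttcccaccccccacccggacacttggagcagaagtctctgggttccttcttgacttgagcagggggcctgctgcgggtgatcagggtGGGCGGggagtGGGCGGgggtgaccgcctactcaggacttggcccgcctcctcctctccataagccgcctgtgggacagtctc
Ptger3: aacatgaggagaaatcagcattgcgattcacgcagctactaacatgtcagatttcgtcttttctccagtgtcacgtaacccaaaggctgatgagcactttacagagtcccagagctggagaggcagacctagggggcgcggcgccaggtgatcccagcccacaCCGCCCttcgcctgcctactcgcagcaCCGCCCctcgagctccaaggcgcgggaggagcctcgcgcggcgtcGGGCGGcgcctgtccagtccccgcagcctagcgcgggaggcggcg

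The Ptgs2 window held 4 of these matches. TTGCGCAA stood at −69 to −62 from the start and occurs in 0.180% of 32851 promoter windows of 280 bases. It is the rarest of the strings searched but also the longest, at 8 letters against 5 or 6, and length alone makes matches rarer. The half-site TGACG, read on the opposite strand at +14 to +18, overlapped CACGTG at +17 to +22, and these occur in 19.9% and 6.79% of promoters. GGGCGG, found in 34.7% of promoters, stood once before the Ptgs2 start, 2 times before that of Ptges and 3 times before that of Ptger3. The Ptgs1 window held no match, and its GC content was 49.6%, against 61.4% for Ptgs2, 59.6% for Ptges, 63.9% for Ptger3 and a median of 52.5% over all promoters. The windows of the uncalled members Ptger4, Ptgfr and Ptgir, not printed here, also held GGGCGG, with GC contents of 66.8%, 53.9% and 62.1%. That of the untested Ptger2 did not, at 37.9%. Neither GGGCGG nor GC content thus set the separated members apart. A match describes the letters only and says nothing of what binds there.

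Ptgs1 (ENSMUSG00000047250.13, chr2:36230426-36252272 on GRCm38, plus strand) encodes COX-1, the cyclooxygenase known for constitutive expression in most tissues. Its level was 237, 228, 168 and 139 CPM in WT1 to WT4, and 43.2, 46.8, 93.4 and 87.1 CPM in HOMO1 to HOMO4. Every HOMO library lay below every WT library, and HOMO1 and HOMO2 lay lowest. Ptgs1 fell by 1.51 on the log2 scale (log2 fold change −1.51, SE 0.305, edgeR adjusted p = 0.0174), from a mean of 193 ± 47.2 CPM (SD, n = 4) to 67.6 ± 26.3 CPM (SD, n = 4), or 2.85-fold lower. In cultures measured in bulk, fewer cells that express a gene and less RNA per cell cannot be told apart. The direction held under each of 23 alternatives, with log2 fold changes of −2.09 to −1.09, but the call was lost in 7 of them, among others without HOMO1 (edgeR adjusted p = 0.0567) or without HOMO2 (0.0619), within a range of 0.000134 to 0.311 over all alternatives. Without WT3 and WT4, the log2 fold change was −1.78 (edgeR adjusted p = 0.00993).

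Ptgs2 (ENSMUSG00000032487.8, chr1:150100031-150108227, plus strand) encodes COX-2, the cyclooxygenase induced by cytokines and growth factors, and its promoter is the window with the palindrome. Its level was 47.8, 35.3, 212 and 73.8 CPM in WT1 to WT4, and 4.72, 4.84, 30.2 and 21.2 CPM in HOMO1 to HOMO4. All HOMO libraries lay below all WT libraries, and the WT libraries themselves spread widely, with WT3 highest. The log2 fold change of −2.60 (SE 0.791, edgeR adjusted p = 0.0616) did not pass the threshold, and it was −1.79 without WT3 (edgeR adjusted p = 0.107). DESeq2, the tool of the study's methods, gave the same log2 fold change with an adjusted p of 0.00227, and adjusted p-values over the alternatives ran from 0.00227 to 0.368.

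Ptges (ENSMUSG00000050737.13, chr2:30889471-30929863, minus strand) encodes microsomal prostaglandin E synthase, the inducible enzyme that turns prostaglandin H2 into prostaglandin E2 and is known to act with COX-2. Its RefSeq start, used for the promoter above, lies inside the GENCODE span of the gene. The level was 41.6, 41.3, 142 and 45.8 CPM in WT1 to WT4, and 16.6, 15.7, 31.7 and 39.2 CPM in HOMO1 to HOMO4. The genotypes did not overlap, but HOMO4 came close to WT1 and WT2, and WT3 stood far above the other WT libraries. The log2 fold change was −1.39 (SE 0.492, edgeR adjusted p = 0.0929) and did not pass the threshold. It was −0.74 without WT3 (edgeR adjusted p = 0.153), and adjusted p-values over the alternatives ran from 0.0283 with DESeq2 to 0.519.

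Ptgis (ENSMUSG00000017969.13, chr2:167191805-167240604, minus strand) encodes prostacyclin synthase, the enzyme that makes prostaglandin I2. It was the most abundant member, at 442, 469.8, 392 and 385 CPM in WT1 to WT4 and at 299, 283, 417 and 413 CPM in HOMO1 to HOMO4. The genotypes overlapped, since HOMO3 and HOMO4 lay within the WT range while HOMO1 and HOMO2 lay below it. The log2 fold change was −0.26 (SE 0.174, edgeR adjusted p = 0.335).

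Set against each other per kb of exon, the synthesis enzymes had the same leading order in both genotypes, Ptgis followed by Ptgs1. In WT, the mean level per kb was 164 CPM for Ptgis, 49.7 for Ptgs1, 20.2 for Ptgs2 and 17.2 for Ptges, and the ranges of Ptgs1 and Ptgs2 and of Ptgs2 and Ptges overlapped. In HOMO it was 138 CPM for Ptgis, 17.4 for Ptgs1, 6.57 for Ptges and 3.33 for Ptgs2, and the ranges of Ptges and Ptgs2 overlapped. Thus Ptgis stood clear of the cyclooxygenases in all 8 libraries. The ratio of Ptgs2 to Ptgs1 per kb was 0.171, 0.131, 1.07 and 0.450 in WT1 to WT4 and 0.0927, 0.0876, 0.274 and 0.207 in HOMO1 to HOMO4. The genotypes overlapped in this ratio, which exceeded 1 only in WT3, so COX-1 transcripts outnumbered COX-2 transcripts per length in the other 7 libraries. The ratio of Ptgis to Ptges was 16.3, 17.4, 4.24 and 12.9 in WT1 to WT4 and 27.5, 27.5, 20.2 and 16.2 in HOMO1 to HOMO4, with HOMO4 inside the WT range.

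**Figure D2:**
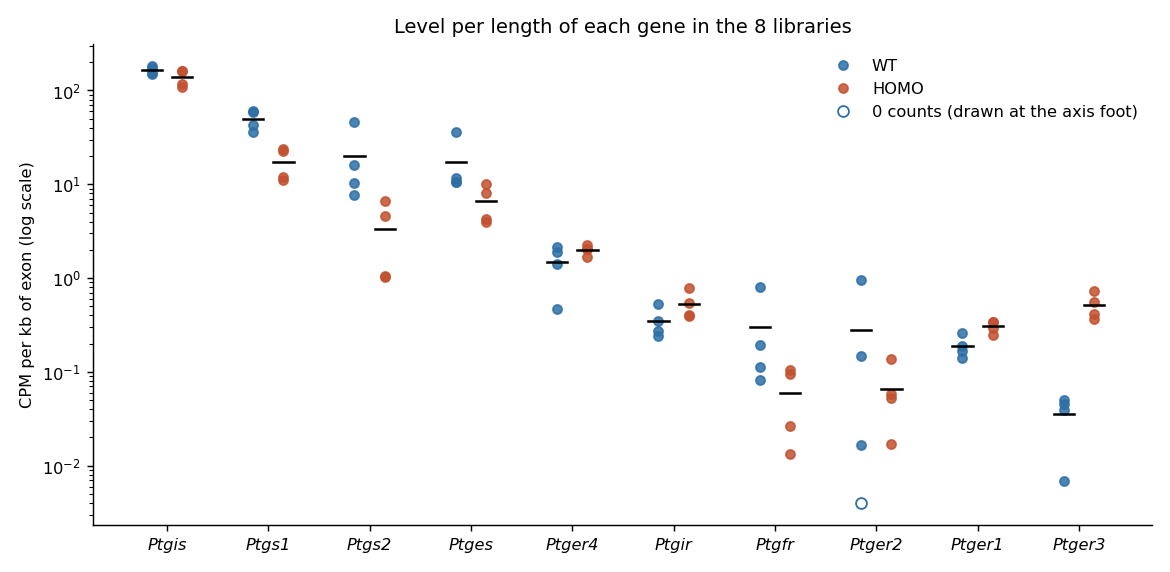
Level of each member per kb of exon (CPM per kb, log scale) in the 8 libraries, ordered by the WT mean, with 1 point per library and a black line at each genotype's mean. Ptgis leads at 164 CPM per kb in WT and 138 in HOMO, and Ptger3, last by its WT mean of 0.0355, reaches 0.514 in HOMO. The open circle is the WT library with 0 counts of Ptger2.

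Ptger3 (ENSMUSG00000040016.16, chr3:157566892-157645888, plus strand) encodes EP3, the prostaglandin E2 receptor that couples mainly to Gi and lowers cAMP. Its counts were 4, 6, 5 and 1 in WT1 to WT4 and 47, 78, 62 and 82 in HOMO1 to HOMO4, which corresponded to 0.225, 0.257, 0.286 and 0.0387 CPM and to 2.09, 2.36, 3.14 and 4.10 CPM. The WT libraries thus lay near the floor of 3 counts, and every HOMO library lay far above every WT library. Ptger3 rose by 3.86 on the log2 scale (SE 0.535, edgeR adjusted p = 0.00502), and its mean level was 14.5-fold higher in HOMO, at 2.92 ± 0.904 CPM (SD, n = 4) against 0.202 ± 0.112 CPM (SD, n = 4). The log2 fold change was between 3.47 and 4.25 over 23 alternatives. The call was lost in 2 of them, with near-identical libraries summed (edgeR adjusted p = 0.235) and without HOMO1 and HOMO2 (0.0651), within a range of 1.12e-10 to 0.235.

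Ptger4 (ENSMUSG00000039942.15, chr15:5206661-5244187, minus strand) encodes EP4, a receptor that couples to Gs and raises cAMP. Its level was 12.8, 14.1, 3.09 and 9.32 CPM in WT1 to WT4, and 11.2, 13.5, 13.6 and 14.9 CPM in HOMO1 to HOMO4. By the mean it was the most abundant of the 6 receptors per kb in both genotypes, although in WT3, at 0.465 CPM per kb, it lay below Ptger2, Ptgfr and Ptgir, and apart from the low WT3 the genotypes largely overlapped. The log2 fold change was 0.43 (SE 0.402, edgeR adjusted p = 0.489) and became −0.019 without WT3 and WT4. The ratio of Ptger4 to Ptger3 per kb was 48.6, 47.1, 9.24 and 206 in WT1 to WT4, the last from 1 count of Ptger3, and 4.59, 4.90, 3.70 and 3.10 in HOMO1 to HOMO4. EP4 transcripts therefore still outnumbered EP3 transcripts per length in every HOMO library, by a smaller margin than in any WT library.

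Ptger2 (ENSMUSG00000037759.6, chr14:44988195-45003820, plus strand) encodes EP2, the other receptor that couples to Gs. Its counts were 0, 2, 87 and 20 in WT1 to WT4 and 2, 9, 14 and 6 in HOMO1 to HOMO4, or 4.98 CPM in WT3 and at most 0.773 CPM elsewhere. The level in WT3 made the WT mean of 1.46 ± 2.37 CPM (SD, n = 4) against 0.342 ± 0.261 CPM in HOMO, and an exact two-sided permutation test over the 70 assignments of libraries to genotypes gave p = 0.657, where 0.0286 is the smallest possible. The gene in WT1 was at 0 of 17236521 counts, which allows a level of up to 0.169 CPM.

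Ptger1 (ENSMUSG00000019464.6, chr8:83666678-83672753, plus strand) encodes EP1, a receptor linked to calcium signaling. Its level was 1.41, 1.03, 0.917 and 0.773 CPM in WT1 to WT4, and 1.34, 1.602, 1.87 and 1.85 CPM in HOMO1 to HOMO4. The genotypes overlapped by WT1 and HOMO1 only, and the log2 fold change was 0.69 (SE 0.303, edgeR adjusted p = 0.153). It passed with limma-voom and sample weights, at 0.64 (limma adjusted p = 0.0267), and adjusted p-values over the alternatives reached 0.728. The value is uncertain, because overlapping genes can share reads here and the strand setting of the counting is not stated. The median log2 fold change over all 791 tested genes of chromosome 8 was 0.38.

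Ptgfr (ENSMUSG00000028036.6, chr3:151796502-151837630, minus strand) encodes FP, the prostaglandin F2 receptor, which couples to Gq. Its counts were 10, 18, 95 and 34 in WT1 to WT4 and 4, 3, 14 and 13 in HOMO1 to HOMO4, or 0.562, 0.771, 5.44 and 1.32 CPM against 0.178, 0.0907, 0.709 and 0.651 CPM. HOMO3 and HOMO4 lay within the WT range, and WT3 again stood highest. The log2 fold change was −2.33 (SE 0.904, edgeR adjusted p = 0.116) and −1.17 without WT3 (0.274). DESeq2 gave the same log2 fold change with an adjusted p of 0.0366, the lowest over the alternatives, which reached 0.540.

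Ptgir (ENSMUSG00000043017.9, chr7:16906490-16910905, plus strand) encodes IP, the prostacyclin receptor, which couples to Gs. Its level was 0.899, 0.814, 1.78 and 1.16 CPM in WT1 to WT4, and 1.34, 1.33, 1.82 and 2.60 CPM in HOMO1 to HOMO4. The genotypes overlapped through WT3, and the log2 fold change was 0.61 (SE 0.376, edgeR adjusted p = 0.296). It passed the threshold with limma-voom and sample weights, at 1.11 (limma adjusted p = 0.00670), and adjusted p-values over the alternatives reached 0.902. Prostacyclin synthase was thus the most abundant transcript of the set per kb, at 164 CPM per kb in WT, while the receptor for its product was present at 0.349 CPM per kb in WT and 0.532 in HOMO.

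Among the receptors, the order of mean levels per kb in WT was Ptger4, Ptgir, Ptgfr, Ptger2, Ptger1 and Ptger3, and of these neighbours only Ptger1 and Ptger3 did not overlap. In HOMO the order was Ptger4, Ptgir, Ptger3, Ptger1, Ptger2 and Ptgfr. There Ptgir and Ptger3, at 0.532 and 0.514 CPM per kb, overlapped, as did Ptger2 and Ptgfr, while the other neighbours did not. By the mean, Ptger3 stood last of the receptors in WT and beside Ptgir in HOMO, but Ptger2 lay below Ptger3 in WT1 and WT2, at 0 and 0.0165 CPM per kb against 0.0395 and 0.0452.

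**Figure D3:**
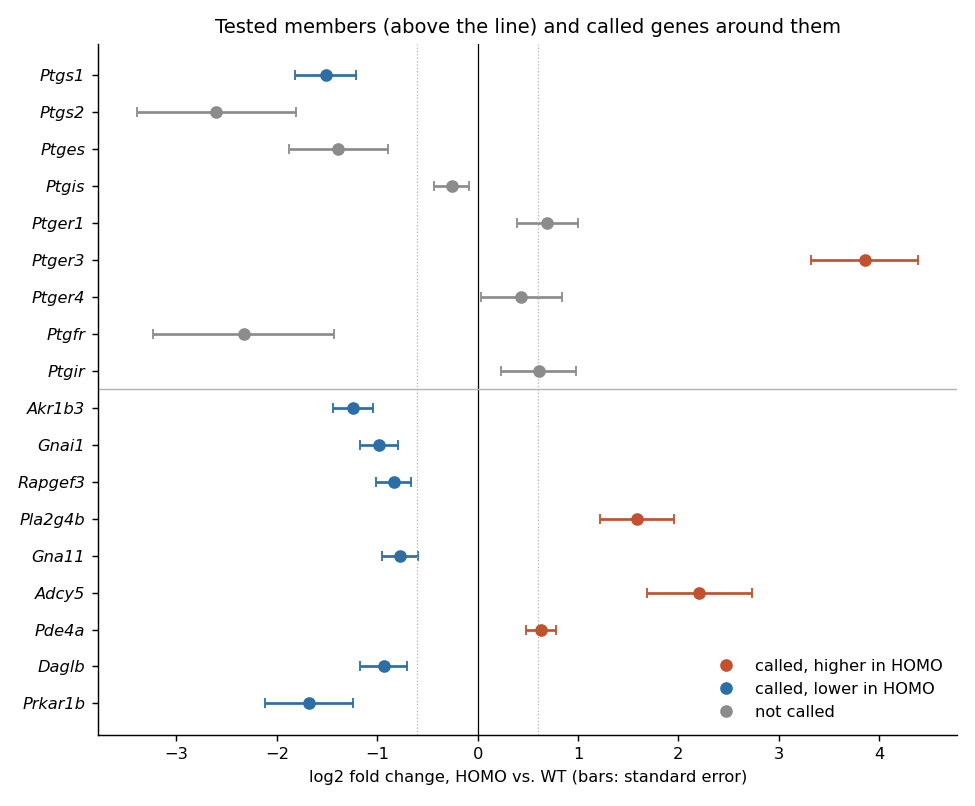
Log2 fold change (HOMO vs. WT, edgeR) with its standard error for the 9 tested members, above the line, and the 9 called genes of the surrounding lists, below it. Dotted lines mark the threshold of 0.6; among the members, Ptgs1 at −1.51 and Ptger3 at 3.86 were called, and Ptgs2 at −2.60 and Ptgfr at −2.33 have the widest bars.

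Several members and their neighbours were highest in the WT libraries with the most macrophage markers. Hpgds, a prostaglandin D synthase of hematopoietic cells, was at 0.787, 1.11, 5.50 and 8.66 CPM in WT1 to WT4 and at 0.134, 0.0907, 1.77 and 1.55 CPM in HOMO1 to HOMO4. Tbxas1, the thromboxane synthase, was at 1.63, 1.29, 9.57 and 5.92 CPM in WT1 to WT4 and at 0.623, 0.302, 2.48 and 3.15 CPM in HOMO1 to HOMO4. These enzymes, like the marker sum, were highest in WT3 and WT4. Most of the sum there was Lyz2, at 1704 CPM in WT3 and 911 in WT4. Ptprc, Adgre1 and Csf1r were highest in WT4, while Cd68, Tyrobp and Fcer1g were, like Lyz2, highest in WT3. Cd14 was also highest in WT3, at 53.4 CPM, but otherwise differed from the other markers. At 18.7, 15.4 and 20.8 CPM, WT1, WT2 and WT4 lay below every HOMO library (28.8 to 37.7 CPM). Its log2 fold change was 0.25 (edgeR adjusted p = 0.678). In Ptgs2, Ptges, Ptgfr and Ptger2, WT3 was highest and WT4 next, although Ptges in WT4, at 45.8 CPM, lay close to WT1, at 41.6. The macrophage part of these members was not tested. Without WT3 and WT4, the log2 fold change was −1.45 for Ptgs2 (edgeR adjusted p = 0.179), −0.69 for Ptges (0.204) and −0.78 for Ptgfr (0.483), while that of Ptger3 was 3.56 (0.00317). Ptgs1 went the other way and was lower in WT3 and WT4 than in WT1 and WT2. Smooth muscle and pericyte markers, 7 of 7 detected, also summed highest in WT3, at 2719 CPM, where WT1, WT2 and WT4 gave 823 to 923 and HOMO 261 to 1469, and their part was not tested either. Mesothelial markers summed to 23.04, 24.3, 231 and 147 CPM in WT1 to WT4 and to 104 to 149.9 in HOMO, and their part was likewise not tested. Hpgds and Tbxas1 were chosen for this comparison after their values were seen.

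**Figure D4:**
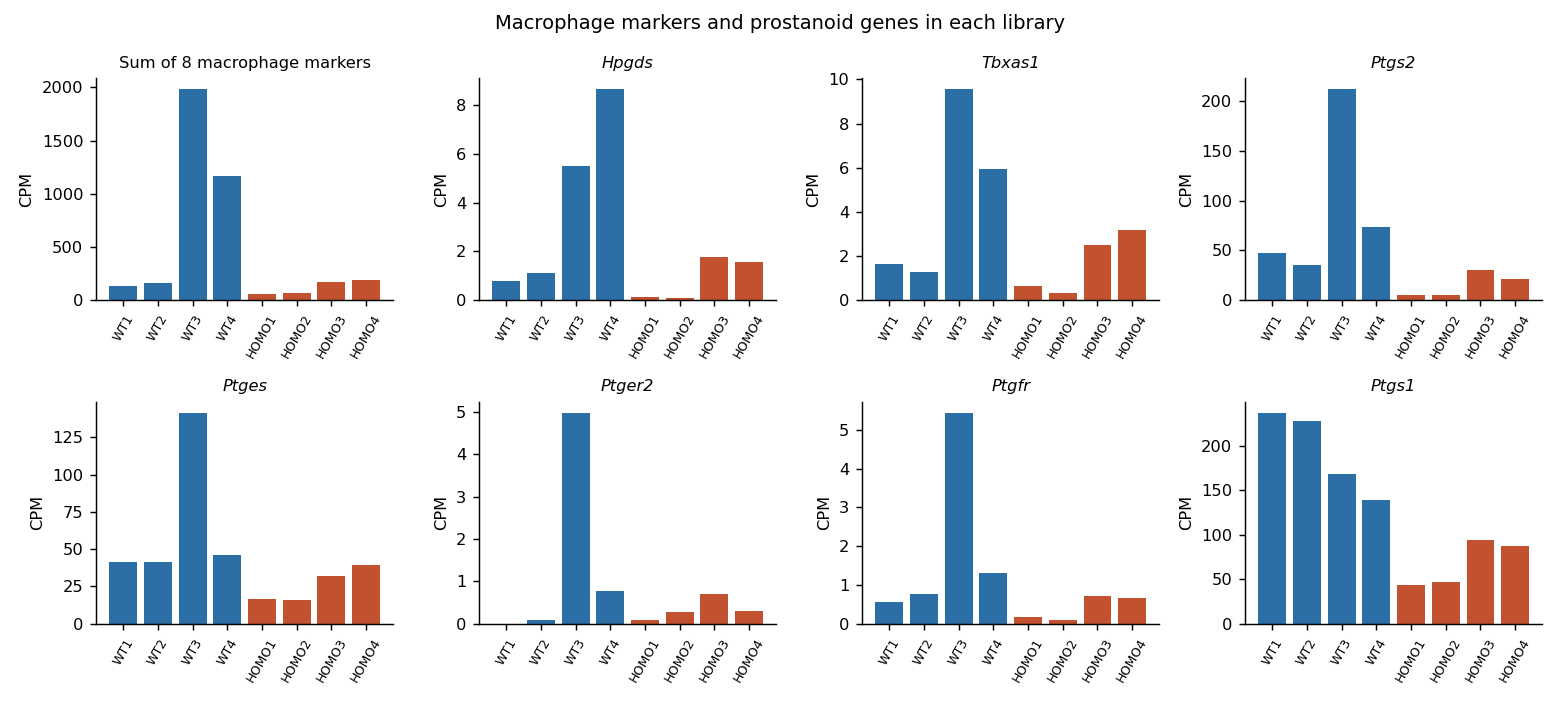
CPM (linear axes) in each library of the sum of 8 macrophage markers and of Hpgds, Tbxas1, Ptgs2, Ptges, Ptger2, Ptgfr and Ptgs1, with WT bars in blue and HOMO bars in red. The marker sum reaches 1986 CPM in WT3 and 1163 in WT4; Ptgs2, Ptges, Ptger2 and Ptgfr are highest in WT3, and Ptgs1 is highest in WT1.

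The genes around the members, 72 that free arachidonic acid, make, move or break down other prostanoids, form the lipoxygenase branch or carry the receptors' signal, included 53 tested genes, of which 3 were higher and 6 lower in HOMO. The 9 calls were 16.98% of the tested genes, beside 12.1% of all tested genes (5.94% higher and 6.18% lower), and in the lists that follow 1 to 3 calls each are too few to be read against these shares. With near-identical libraries summed edgeR made 0 of these calls, with 13 at an unadjusted p under 0.05, where DESeq2 on the 8 libraries made 14. There was 1 call with glmTreat, a test against the fold threshold, 1 without HOMO1, 1 without HOMO2, 3 without HOMO3 and 2 without HOMO4. Their median log2 fold change was −0.31, with 15 above 0 and 38 below (71.7%), against −0.04 and 52.7% below 0 for all tested genes. Of the 7 tested genes of arachidonate release, 1 was higher and 1 lower. Daglb, a diacylglycerol lipase, fell from 26.1 ± 5.93 to 13.7 ± 3.48 CPM (SD, n = 4 each; log2 fold change −0.94, edgeR adjusted p = 0.0354), with 24.1% of its exon bases shared with Rac1 on the opposite strand. Pla2g4b, a cytosolic phospholipase gene, was called at a log2 fold change of 1.59 (edgeR adjusted p = 0.0278), from 0.470 ± 0.185 to 1.44 ± 0.252 CPM, but 66.5% of its exon bases also belong to the readthrough gene Gm28042 on the same strand, so the value is uncertain. Pla2g4a, the main cytosolic phospholipase of stimulated cells, was at 66.6, 59.5, 181 and 122 CPM in WT1 to WT4 and at 39.3, 38.3, 52.9 and 53.0 CPM in HOMO1 to HOMO4. The genotypes did not overlap, and the log2 fold change of −1.23 (edgeR adjusted p = 0.0521) did not pass the threshold.

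Of 6 other tested prostanoid synthases 1 was called, and all 6 had log2 fold changes below 0, as had 52.7% of all tested genes. Akr1b3, an aldose reductase known to act as a prostaglandin F synthase, fell by 1.24 on the log2 scale (SE 0.196, edgeR adjusted p = 0.00789), from 142, 132, 166 and 94.999 CPM in WT1 to WT4 to 48.8, 48.7, 63.2 and 65.3 CPM in HOMO1 to HOMO4. Its genotypes did not overlap. Ptges2 and Ptges3, the other prostaglandin E synthases, had log2 fold changes of −0.24 and −0.10 (edgeR adjusted p = 0.317 and 0.601).

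Of 5 tested genes of prostanoid transport and breakdown, edgeR called 0, with 2 at an unadjusted p under 0.05, and DESeq2 called 2. Slco2a1, the transporter that takes prostaglandins up for breakdown, was at 556, 545, 12.5 and 475 CPM in WT1 to WT4 and at 40.2, 38.7, 80.5 and 81.1 CPM in HOMO1 to HOMO4. The WT libraries other than WT3 lay far above every HOMO library, and WT3 lay below every HOMO library, so that the log2 fold change of −2.72 did not pass the threshold (edgeR adjusted p = 0.0748). Without WT3 it was −3.13 (edgeR adjusted p = 0.00177). Hpgd, the dehydrogenase that starts prostaglandin breakdown, was too low to be tested, at means of 0.473 CPM in WT and 0.221 in HOMO.

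Of the receptors and partners outside the members, 2 of 4 were tested, edgeR called 0, with 1 at an unadjusted p under 0.05, and DESeq2 called 1. Ptgfrn, a membrane protein that binds the FP receptor, was at 146, 151, 229 and 284 CPM in WT1 to WT4 and at 115, 100.03, 133 and 140.3 CPM in HOMO1 to HOMO4 (log2 fold change −0.73, edgeR adjusted p = 0.0745). Its genotypes did not overlap. Tbxa2r, the thromboxane receptor, was at 2.81, 2.61, 44.3 and 17.8 CPM in WT1 to WT4 and at 6.32, 8.22, 15.8 and 14.9 CPM in HOMO1 to HOMO4. WT3 was highest and WT1 and WT2 lowest, and the log2 fold change of −0.58 (edgeR adjusted p = 0.672) was 2.06 without WT3 and WT4 (0.0166). Of the lipoxygenase branch, 2 of 10 genes were tested and edgeR and DESeq2 called 0, with 0 at an unadjusted p under 0.05 in either. Pla2g4a, Slco2a1, Ptgfrn and Tbxa2r were named after their values were seen, as were the genes given here without a call.

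The 17 G protein and adenylyl cyclase genes were all tested, with 1 higher and 2 lower. Adcy5, a cyclase that makes cAMP, rose by 2.21 on the log2 scale (SE 0.527, edgeR adjusted p = 0.0302), from 0.730, 1.67, 5.38 and 3.21 CPM in WT1 to WT4 to 11.3, 11.6, 12.1 and 16.0 CPM in HOMO1 to HOMO4. Gnai1, a Gi subunit of the class that EP3 uses, fell from 62.0 ± 15.1 to 31.3 ± 3.03 CPM (log2 fold change −0.98, edgeR adjusted p = 0.0153). Gna11, a subunit of the Gq class, fell from 185 ± 37.4 to 108 ± 16.2 CPM (log2 fold change −0.77, edgeR adjusted p = 0.0280). All 3 had genotypes that did not overlap.

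Of 14 tested cAMP effectors and breakdown genes, 1 was higher and 2 lower. Pde4a, a phosphodiesterase that breaks down cAMP, rose from 22.1 ± 3.60 to 34.3 ± 1.52 CPM (log2 fold change 0.63, edgeR adjusted p = 0.0309). Rapgef3, the cAMP sensor EPAC, fell from 50.7 ± 7.37 to 28.5 ± 5.07 CPM (log2 fold change −0.83, edgeR adjusted p = 0.0200). Prkar1b, a regulatory subunit of protein kinase A, fell from 44.3 ± 21.2 to 13.9 ± 6.16 CPM (log2 fold change −1.68, edgeR adjusted p = 0.0387). Prkar1b was itself higher in WT3 and WT4, at 58.03 and 66.4 CPM, than in WT1 and WT2, at 22.4 and 30.3, and without WT3 and WT4 its log2 fold change was −0.93 (edgeR adjusted p = 0.116), with −1.52 (0.0576) when WT3 alone was left out. Without WT3 and WT4, Pde4a had a log2 fold change of 0.45 (edgeR adjusted p = 0.0130), and without WT3 of 0.54 (0.0198), both under the fold threshold.

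The genes whose log2 CPM across the 8 libraries was most like that of each called member are given as a description, since all points share the genotype contrast and the near-identical libraries. For Ptgs1 they were Htr2a, a serotonin receptor, with a Pearson r of 0.999, Ptk2, focal adhesion kinase, with 0.996, and Zdhhc20 with 0.995. Htr2a had means of 38.1 CPM in WT and 9.56 in HOMO. For Ptger3 they included Rrnad1 with an r of 0.990 and the transcription factor gene Tcf12 with 0.988.

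**Figure D5:**
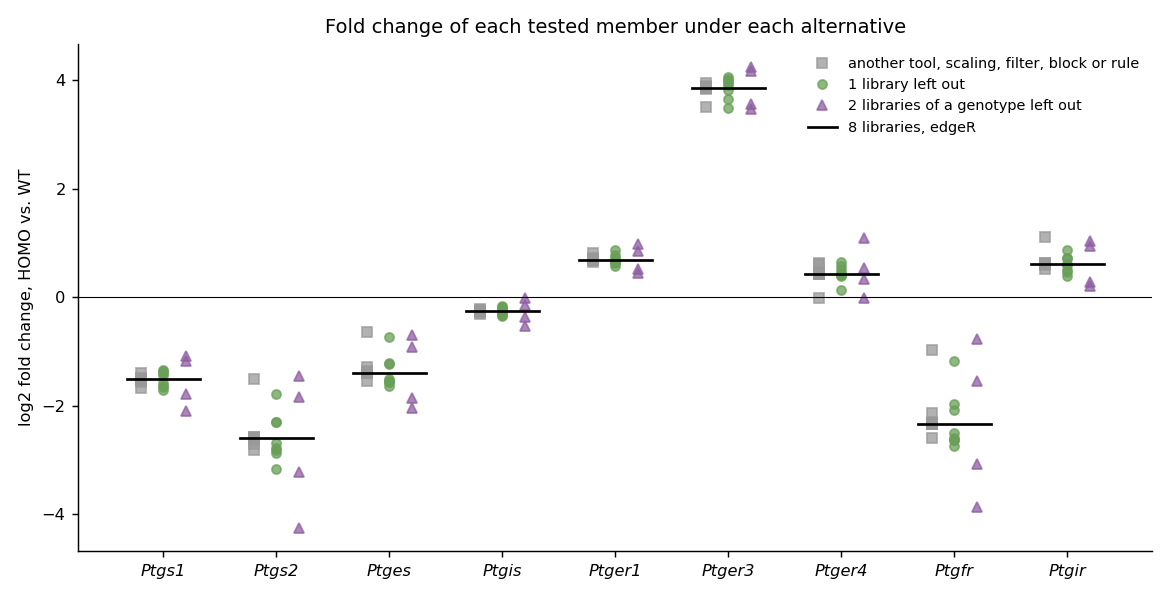
Log2 fold change (HOMO vs. WT) of each tested member in edgeR with 8 libraries (black line), with another tool, scaling, filter, block or rule (grey squares), with 1 library left out (green circles) and with 2 libraries of a genotype left out (purple triangles). Ptgs1 and Ptger3 stay on 1 side of 0 at −2.09 to −1.09 and 3.47 to 4.25, while Ptger4 reaches −0.019 and Ptgs2 spreads from −4.25 to −1.45.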

How the data were processed

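The authors used fastp for trimming, STAR for alignment to mm10 (GRCm38) and featureCounts for the raw gene counts they deposited. Versions, annotation and strand setting are not given in the sources used here, and the deposited table carries the label "outlierout", whose meaning is not stated. The submitters' processing notes also name CASAVA and DESeq2. All 8 libraries were used, with 0 columns left aside, and n counts libraries.

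The members and the lists around them were chosen with earlier results of these data known. Counts were compared with edgeR 4.0.16 in R 4.3.3 (quasi-likelihood F test, TMM, filterByExpr by genotype, Benjamini-Hochberg adjustment over 14150 genes). SE was computed from each gene's log2 fold change and F statistic, as their ratio after taking the root of F. Log2 CPM has a prior count of 2. Alternatives used DESeq2 1.42.0, limma 3.58.1 and the settings named in the closing section. GENCODE M21, matched by symbol for 53877 of 54532 entries, gave positions, exon overlap and exon length. Figures were drawn with Python 3.11.15 and matplotlib 3.10.9, and the scripts were tested on simulated data. There, 10.5% of simulated log2 changes of 1 and 60.8% of those of 2 were recovered, with 5.48% false calls. A gene without a call is therefore not shown to be unchanged. Named genes were all members, the called genes of the lists (at most 12), and the 3 genes most like each called member; others are said to have been named later. A gene that meets this rule is not reported here. The replicate numbers showed no pairing of the libraries. The human transgene was not analysed here.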

Additional observations from a re-analysis of the deposited data

Results flagged for a closer look

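In groups of 4 libraries, 4 of 50 groups checked over 25 genes held a library far from the other 3 by Dixon's criterion, all of them in WT. The criterion's chance rate of about 1 in 20 assumes independent libraries, which the near-identical pairs may not be. It therefore cannot be set beside this count. Ptges stood at a log2 CPM of 7.15 in WT3, against 5.37 to 5.52 in the other WT libraries. Ptger3 stood at −2.97 in WT4, a value resting on 1 count, against −1.67 to −1.41 in the other WT libraries. Daglb stood at 5.13 in WT4, against 4.51 to 4.56 in the other WT libraries. Slco2a1 stood at 3.66 in WT3, against 8.89 to 9.12 in the other WT libraries.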

How the results depend on the processing

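The depth limits the low receptors: 1 to 6 counts of Ptger3 per WT library, and 0 to 87 of Ptger2. Of 14150 tested genes 1716 were called, with 2 members and 9 genes of the surrounding lists. The 3 counts were 2913, 5 and 14 with DESeq2 and 3573, 5 and 19 with limma-voom and sample weights. They were 454, 1 and 1 with glmTreat, a test against the fold threshold. With near-identical libraries summed, edgeR called 0, 0 and 0, with 2057, 3 and 13 at an unadjusted p under 0.05. Leaving out 1 library gave 507 to 2192 genes, 1 to 2 members and 1 to 9 list genes, with 507, 1 and 1 without HOMO1, 512, 1 and 1 without HOMO2, 1040, 2 and 3 without HOMO3 and 980, 2 and 2 without HOMO4. The alternatives that leave out 2 libraries were chosen after seeing the data. They gave 3117, 2 and 15 without WT3 and WT4, 3271, 5 and 20 without WT1 and WT2, 76, 0 and 0 without HOMO1 and HOMO2 (2050, 2 and 11 at an unadjusted p under 0.05), and 913, 3 and 4 without HOMO3 and HOMO4.

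The replicate number as a block gave 947 genes, 2 members and 7 list genes. Under the block Ptgs1 (log2 fold change −1.56, edgeR adjusted p = 0.0669) lost its call and Ptgs2 (−2.70, 0.0146) gained it. Same-numbered libraries had correlations of deviations of −0.0910, −0.0424, 0.0141 and −0.124, which show no pairing by number. All pairs of a WT with a HOMO library lay between −0.17 and 0.17. Because near-identical libraries within a genotype shape these deviations, the check is limited. Ptgs1 also lost its call with near-identical libraries summed (0.311), with glmTreat (0.0777), without WT1 and WT2 (0.0511) and without HOMO1 and HOMO2 (0.175). The direction turned for Ptger4 with limma-voom (−0.0097) and without WT3 and WT4 (−0.019), for Tbxas1 without WT3 and WT4 (0.15), and for Tbxa2r with limma-voom (2.04), under the block (0.26), and without WT3 and WT4 (2.06); leaving out 1 library gave −0.94 to 0.54, above 0 only without WT3. The cause was not tested. For 15 other named genes, 245 of 345 values kept their direction and side of the threshold, 83 lost it and 12 gained it. The permutation p of Ptger2 was 0.743 on log2 CPM. The median of all tested genes moved by less than 0.1 under each scaling.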

Other observations

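For all tested genes on chromosome 3, which holds Ptger3 and Ptgfr, the median deviation from the mean of the genotype's other libraries was 0.37 (log2) in WT3. It was between −0.16 and −0.02 in the other WT libraries. On chromosome 7, which holds Ptgir, it was 0.36 in WT3 and between −0.15 and −0.05 in the others. The median log2 fold change was −0.23 over the 683 tested genes of chromosome 3 and −0.29 over the 1047 of chromosome 7.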
